A study of Drosophila melanogaster with 6 samples.

Results

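Flies make fatty acids, store them as triacylglycerol in lipid droplets and release them again with lipases. The 10 genes described here cover these steps. They are the fatty acid synthases FASN1, FASN2 and FASN3, the carboxylase ACC, the desaturase Desat1, the lipases bmm and magro, the droplet proteins Lsd-1 and Lsd-2, and the acyltransferase mdy. They were chosen by name, from what the genes are known to do, out of 11491 genes in the deposited table. The choice was made with earlier results of these data known. All 10 were found, 9 under the listed name and magro under its symbol mag (FBgn0036996), for which RefSeq gives Magro as a synonym. All 10 passed the filter on low values.

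Poly(A) RNA of whole testes from adult Drosophila melanogaster males was sequenced in biological triplicate, as 3 libraries of Zeus KO testes and 3 of testes from the control injection line. Zeus KO flies carry CRISPR-Cas9 indels in the coding sequence of Zeus (Rcd-1r), a young duplicate of the CCR4-NOT subunit gene Caf40. The labels call the control WT, and here it is called control as in the paper. The strain label of both groups is BDSC #25710, and the testes of every replicate were kept in PBS before extraction. The genotype that the paper gives for this strain holds named alleles of y, sc, v and sev, an integrase transgene on the X and an attP2 insertion. The paper speaks of KO lines in the plural, and which libraries share a line, and the age of the males, are not given in the sources used here.

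Fatty acid synthesis starts when ACC carboxylates acetyl-CoA to malonyl-CoA, which fatty acid synthases extend to a long saturated chain with NADPH as the reductant. Desaturases and elongases then modify the chain, and acyltransferases build it into triacylglycerol, which is kept in droplets coated with perilipins until lipases cleave it. In the fly the fat body is the main site of this storage, oenocytes make very long and methyl-branched chains for the cuticle, and in the testis lipid droplets occur in somatic and germline cells.

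The deposited table gives 1 mean of normalized reads per gene and group, and the reads of each library were solved from these means. The libraries of a group are called A, B and C in order of decreasing size factor, since they carry no replicate number. The libraries held between 12533272 and 18846182 sequenced reads. Zeus itself had 318.7, 337.7 and 380.4 normalized reads in control A, B and C and 269.0, 268.8 and 328.3 in Zeus KO A, B and C. These groups overlapped (log2 fold change -0.26, SE, the standard error, 0.132, adjusted p = 0.314 from limma), and reads of an indel allele are still counted. Among all 11265 genes tested, 239 were called higher in Zeus KO (2.12%) and 213 lower (1.89%). Called here means an adjusted p under 0.05 from limma's moderated test with Benjamini-Hochberg adjustment and at least a 1.5-fold difference.

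The libraries also differed by transcript length, in both groups. Among the 8537 genes with a mean of at least 100 and a known exon length, 21.6% were lowest in control B, then C, then A, and lowest in A among the Zeus KO libraries. Of the 515 genes with at least 7000 bases of exon 79.2% had both orders, and of the 3119 genes under 1500 bases 0.673%. The median log2 fold change was 0.161 in the long genes and -0.0924 in the short ones. FASN1, FASN2, FASN3 and ACC, with 7395 to 9067 bases of exon, are all among the long genes. An alternative added after the data were seen therefore subtracted from each library a smooth curve of its deviations on exon length, and its values are given below as the length-corrected ones. Their p-values take no account of the fitting of that curve.

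Of the 10 genes, FASN3 rose in Zeus KO and no other gene was called. That is 1 of 10, beside 4.01% of all genes tested, and with 10 genes a count of 1 is not far from that background. With the length correction FASN1 and FASN3 were called, 2 of 10, beside 606 of 11182 genes. At an adjusted p under 0.05 with no limit on the fold, the count was also 1 of 10, beside 4.98% of all genes. Control and Zeus KO libraries did not overlap for 4 of the 10 genes, beside 23.4% of all genes. FASN3 and mag were the higher ones in Zeus KO, and Desat1 and Lsd-1 the lower ones. The unadjusted p was under 0.05 for 6 of the 10 genes and for 2123 of all 11265, and 4 of the 10 had an adjusted p between 0.05 and 0.1. The median log2 fold change was 0.0221 over the 10 genes and 0.00165 over all genes tested, with 5 of the 10 above 0 and 5 below. In RNA of a whole organ, fewer cells of a type and less RNA per cell cannot be told apart.

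**Figure D1:**
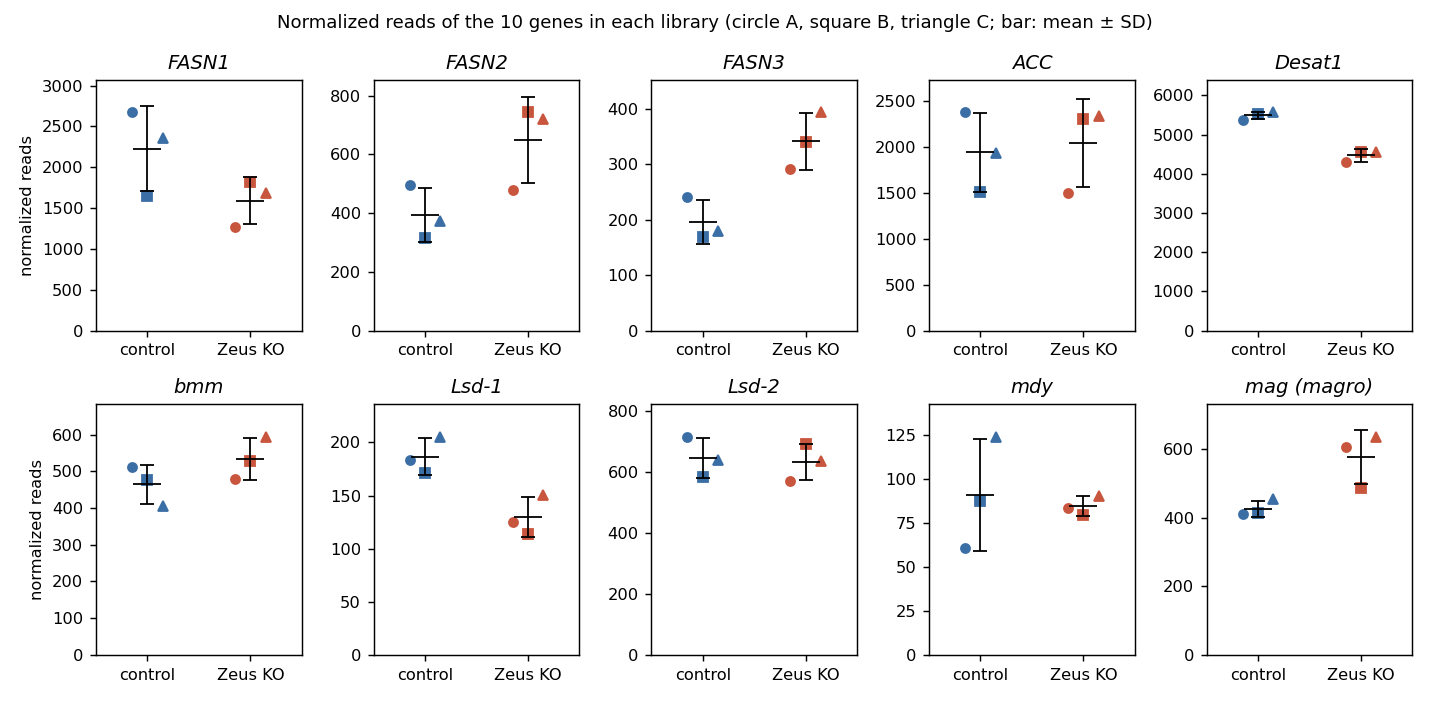
Normalized reads (vertical axes, each starting at 0) of the 10 genes in the 3 control and 3 Zeus KO libraries, with the mean and SD as bars. FASN3 and mag are higher in each Zeus KO library than in any control library, Desat1 and Lsd-1 are lower, and the other 6 genes overlap.

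FASN3 encodes a fatty acid synthase that acts in oenocytes. It had 240.9, 168.2 and 179 normalized reads in control A, B and C and 291.2, 339.5 and 393.4 in Zeus KO A, B and C. Its lowest Zeus KO library lay above its highest control library. The mean went from 196 ± 39.2 to 341.4 ± 51.1 (SD, n = 3), a log2 fold change of 0.80 (SE 0.167, adjusted p = 0.0159 from limma), or 1.75-fold. The 95% interval of the log2 fold change ran from 0.44 to 1.17. The call rested on 131 to 328 reads per library. It was lost without control C (adjusted p = 0.106), without Zeus KO B (0.0680) or without Zeus KO C (0.0901), all from limma, while the log2 fold change stayed between 0.68 and 0.96 in all 15 alternatives. The lowest was the length-corrected one, 0.68 (adjusted p = 0.000283 from limma).

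FASN2 encodes a further synthase known from oenocytes and cuticle lipids. It had 495.6, 315.8 and 373.8 normalized reads in the control libraries and 480.4, 743.3 and 721.6 in the Zeus KO libraries. Zeus KO A lay just below control A, so the groups overlapped, and the other Zeus KO libraries lay above all controls. The means were 395.1 ± 91.7 and 648.4 ± 146 (SD, n = 3), with a log2 fold change of 0.71 (SE 0.193, adjusted p = 0.0595 from limma), which did not pass the test. It did pass without control A (0.89, adjusted p = 0.0115), without Zeus KO A (0.91, adjusted p = 0.0057) and when libraries were scaled to the total of the solved reads (0.75, adjusted p = 0.0485). With any other library left out it did not pass (adjusted p from 0.17 to 0.243 from limma). Length-corrected, it was 0.58 with an adjusted p of 0.000258 from limma, just under the fold limit.

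FASN1, the synthase that serves the fat body and general lipid synthesis, was the most abundant of the 3. It had 2672, 1652 and 2357 normalized reads in the control libraries and 1273, 1817 and 1688 in the Zeus KO libraries. Control B lay within the range of Zeus KO, below Zeus KO B and C, and the other controls lay above it. The means were 2227 ± 522.1 and 1593 ± 283.9 (SD, n = 3), with a log2 fold change of -0.47 (SE 0.176, adjusted p = 0.176 from limma), opposite in sign to those of FASN2 and FASN3. Without control B the log2 fold change was -0.67 and passed the test (adjusted p = 0.0245 from limma). With any other library left out it did not pass (adjusted p from 0.207 to 0.457 from limma). Length-corrected, it was -0.61 (adjusted p = 9.8e-06 from limma) and was called.

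The summed level of the 3 synthases was 2818 ± 640.9 normalized reads in control against 2582 ± 468 in Zeus KO (SD, n = 3), and the groups overlapped. Its composition did not overlap. FASN1 made up 78.39%, 77.34% and 81.0% of the sum in control A, B and C and 62.27%, 62.65% and 60.22% in Zeus KO A, B and C. Each of these shares is a ratio within a library and does not depend on how libraries are scaled. The share of FASN2 was 14.1% ± 1.06 in control against 25.0% ± 1.27 in Zeus KO, and that of FASN3 was 7.03% ± 0.861 and 13.3% ± 1.41 (SD, n = 3). Every Zeus KO library had a lower share of FASN1, and higher shares of FASN2 and FASN3, than every control library. The Wilson 95% interval of the FASN1 share reached no lower than 75.3% in a control library and no higher than 64.5% in a Zeus KO library, and these intervals cover counting error only. Per kilobase of exon, FASN1 held 77.2% ± 2.02 of the 3 levels in control against 59.2% ± 1.36 in Zeus KO (SD, n = 3). The shares were examined after the values of the genes had been seen and are given without a test, and 3 libraries against 3 cannot give an exact 2-sided p below 0.1.

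**Figure D2:**
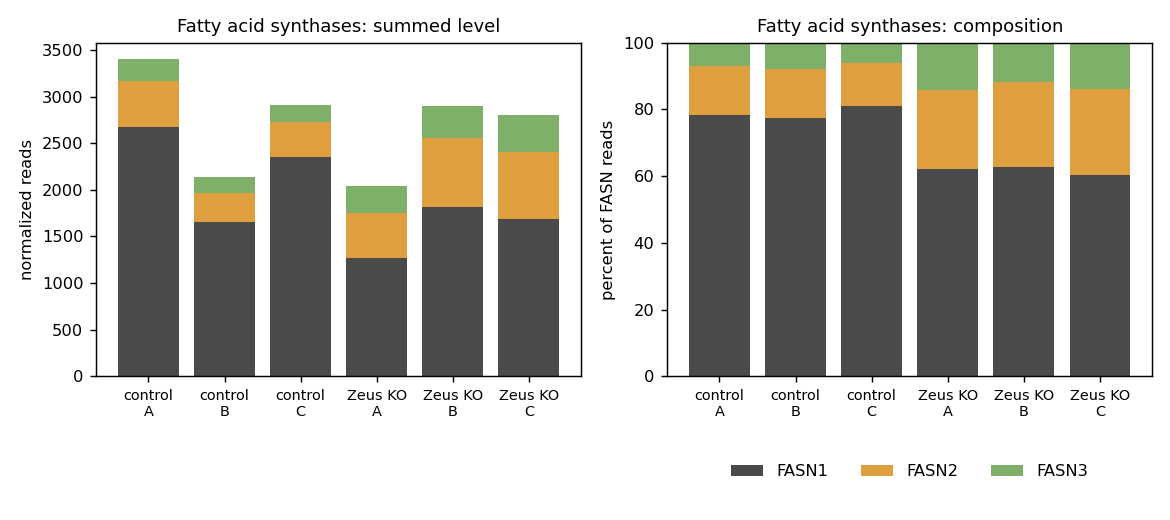
Summed normalized reads of FASN1, FASN2 and FASN3 in each library (left, axis from 0) and the percent of that sum from each gene (right). The summed level overlaps between the groups, while FASN1 holds between 77.34% and 81.0% in control libraries and between 60.22% and 62.65% in Zeus KO libraries.

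FASN2 and FASN1 lie next to each other on the plus strand of chromosome 2L of the dm6 genome, FASN2 from 3043947 to 3056143 and FASN1 from 3056598 to 3068177, with 454 bases between them. FASN3 lies elsewhere, on chromosome 3L (minus strand, 25752859 to 25762779). The 3 genes are paralogs, and how reads that match more than 1 of them were assigned is not given in the sources used here, so the split between them is uncertain to that extent. The ratio of FASN2 to its neighbour FASN1 was 0.185, 0.191 and 0.159 in the control libraries and 0.377, 0.409 and 0.428 in the Zeus KO libraries. The ratio of FASN3 to FASN1 was 0.0893 ± 0.0129 in control against 0.216 ± 0.0255 in Zeus KO (SD, n = 3), also without overlap. The ratio of FASN3 to FASN2 was 0.499 ± 0.0291 and 0.536 ± 0.0752 (SD, n = 3), and here the groups overlapped.

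ACC, the carboxylase that commits acetyl-CoA to fatty acid synthesis, is as long a transcript as the synthases. It had 2379, 1514 and 1935 normalized reads in the control libraries and 1496, 2313 and 2339 in the Zeus KO libraries. The groups overlapped over nearly their whole range, with means of 1942 ± 432.6 and 2050 ± 479.4 (SD, n = 3). The log2 fold change was 0.072 (95% interval from -0.34 to 0.49, adjusted p = 0.875 from limma), so a change of the size seen in FASN3 lay outside the interval. Length-corrected, it was -0.066 (adjusted p = 0.673 from limma). ACC lies on chromosome 2R (minus strand, 7974115 to 7991862).

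Within a group, ACC and the 3 synthases shared the order of libraries given above for long genes, as did Lsd-2 with 4598 bases of exon, so the order is not particular to them. It was looked up in the long genes after it had been seen in ACC and the synthases. The highest control library exceeded the lowest by 1.62 times for FASN1, 1.57 times for FASN2, 1.43 times for FASN3 and 1.57 times for ACC. The median of that ratio among genes with a mean of at least 100 was 1.22 in control, and its 90th percentile was 1.5, while the median of the long genes alone was 1.46. In Zeus KO the ratios of the 4 genes ran from 1.35 to 1.56, beside a median of 1.2, a 90th percentile of 1.45 and a median of 1.35 in the long genes. Set against ACC, a transcript of similar length in the same library, the synthases spread less, though FASN3 in Zeus KO hardly so (0.195, 0.147 and 0.168 of ACC). FASN2 stood at 0.203 ± 0.00883 of ACC in control against 0.317 ± 0.00731 in Zeus KO (SD, n = 3). FASN3 stood at 0.102 ± 0.0093 and 0.17 ± 0.024 of ACC, and FASN1 at 1.14 ± 0.066 and 0.786 ± 0.0647 (SD, n = 3). None of these 3 ratios overlapped between the groups. In all, 9 ratios between the genes were computed after their values had been seen, and 6 did not overlap. The ratios share genes, so the 6 are not separate results. How often ratios of other gene pairs do not overlap was not computed, and 23.4% of all single genes did not overlap.

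**Figure D3:**
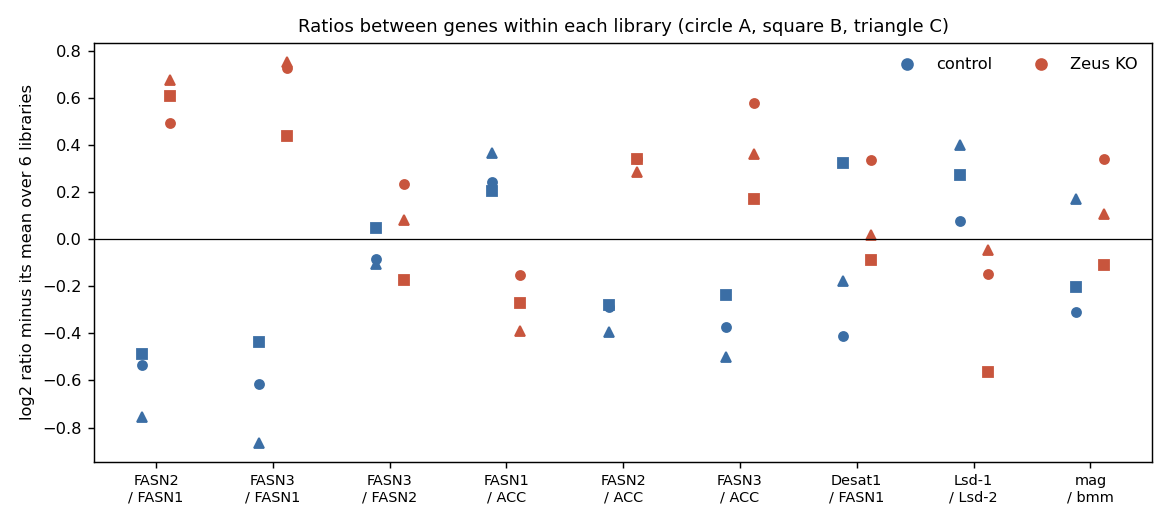
Ratios between pairs of the genes in each library, as the log2 ratio minus its mean over the 6 libraries (vertical axis), with control in blue and Zeus KO in red. The 2 synthase ratios to FASN1, the 3 ratios to ACC and that of Lsd-1 to Lsd-2 do not overlap between the groups, and the other 3 overlap.

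Desat1, the acyl-CoA desaturase that makes monounsaturated fatty acids and pheromone precursors, was the most even of the 10 genes within a group. It had 5382, 5522 and 5565 normalized reads in the control libraries and 4289, 4560 and 4562 in the Zeus KO libraries. All Zeus KO libraries lay below all controls. The means were 5490 ± 95.5 and 4470 ± 157.2 (SD, n = 3), with a log2 fold change of -0.30 (SE 0.0831, adjusted p = 0.0691 from limma), which is 0.814-fold and under the fold limit. The ratio of the highest to the lowest library was 1.03 in control against 1.06 in Zeus KO, and it was lowest in A in both groups. Length-corrected, the log2 fold change was -0.35 (adjusted p = 0.00162 from limma), still under the fold limit. Its ratio to FASN1 overlapped between the groups. Desat1 lies on the plus strand of chromosome 3R from 12439600 to 12447616.

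The droplet proteins Lsd-1 and Lsd-2 are the perilipins of the fly, and they differ in what they are known for. Lsd-1 sits on droplets and takes part in hormone-stimulated lipolysis, while Lsd-2 protects stored triacylglycerol from lipases. Lsd-1 had 183.3, 170.8 and 205.3 normalized reads in the control libraries and 125.2, 113.5 and 150.2 in the Zeus KO libraries. All Zeus KO libraries lay below all controls, with means of 186.5 ± 17.5 and 129.6 ± 18.7 (SD, n = 3). The log2 fold change was -0.53 (SE 0.157, adjusted p = 0.0866 from limma), the lowest of the 10, and it did not pass the test. Length-corrected, it was -0.54 with an adjusted p of 0.0190 from limma, under the fold limit.

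Lsd-1 lies on the plus strand of chromosome 3R from 23763857 to 23766662. It is the only one of the 10 genes whose exons overlap those of another gene, with 144 bases (7.35% of its exon length) shared with CG10214 on the opposite strand. Whether strand was used in counting is not given in the sources used here, so reads of that stretch cannot be told apart. CG10214 had means of 155 and 154 normalized reads in control and Zeus KO.

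Lsd-2 had 716.2, 582.9 and 641 normalized reads in the control libraries and 571.8, 691.9 and 637.9 in the Zeus KO libraries. The groups overlapped over almost their whole range, with a log2 fold change of -0.028 (95% interval from -0.29 to 0.23, adjusted p = 0.927 from limma). The ratio of Lsd-1 to Lsd-2 was 0.29 ± 0.0323 in control against 0.206 ± 0.0373 in Zeus KO (SD, n = 3) without overlap. Lsd-2 is the only X-linked gene of the 10, on the minus strand from 15069127 to 15076220.

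The gene mdy (midway) encodes the diacylglycerol acyltransferase of the last step of triacylglycerol synthesis and is known for its need in oogenesis. It was the gene of lowest read number, with 57 to 94 reads per library. It had 60.75, 87.3 and 123.7 normalized reads in the control libraries and 83.46, 79.26 and 90.37 in the Zeus KO libraries. The controls enclosed all Zeus KO libraries, with a ratio of highest to lowest of 2.04 in control against 1.14 in Zeus KO. The log2 fold change was -0.045 (95% interval from -0.57 to 0.48, adjusted p = 0.943 from limma), an interval wide enough to hold a change near the fold limit. It lies on the plus strand of chromosome 2L from 16816660 to 16826964.

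The lipases bmm and mag act at different places. The first (brummer) is the fly homolog of the adipose triglyceride lipase and works on lipid droplets, while mag is known as a lipase of the gut that is also active on stored lipid and sterol esters. The bmm libraries had 511.6, 476.3 and 405.4 normalized reads in control and 479.5, 528 and 594.1 in Zeus KO. They overlapped, with a log2 fold change of 0.20 (95% interval from -0.078 to 0.48, adjusted p = 0.433 from limma). The mag libraries had 411.4, 412.1 and 452.7 normalized reads in control and 604.7, 487.3 and 635.3 in Zeus KO. All Zeus KO libraries of mag lay above all controls, with means of 425.4 ± 23.7 and 575.8 ± 78.1 (SD, n = 3). The log2 fold change of mag was 0.43 (SE 0.125, adjusted p = 0.0817 from limma) and did not pass the test. Length-corrected, it was 0.46 with an adjusted p of 0.00461 from limma, under the fold limit. The ratio of mag to bmm overlapped between the groups. Both lie on chromosome 3L, bmm on the minus strand from 14776496 to 14786412 and mag on the plus strand from 20460683 to 20462274.

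**Figure D4:**
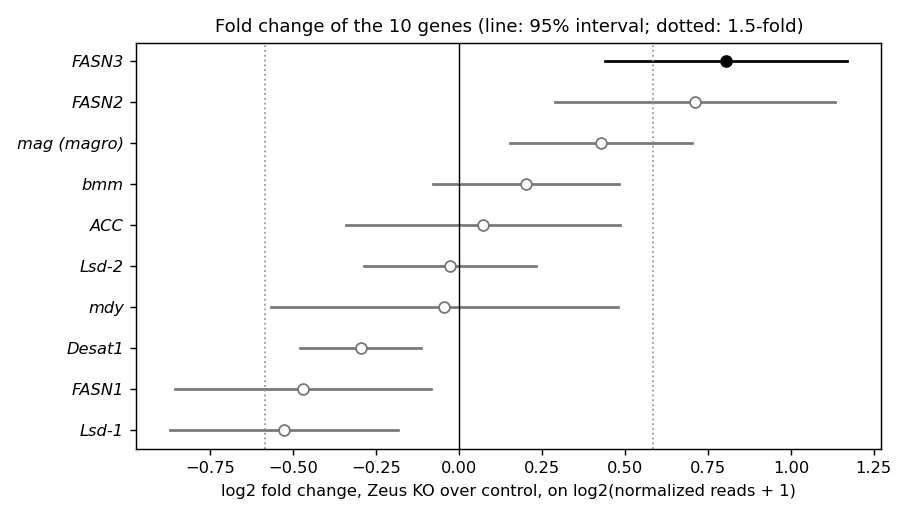
Log2 fold change between Zeus KO and control, positive where Zeus KO is higher, for the 10 genes (horizontal axis, on the log2(normalized reads + 1) scale) with its 95% interval as a line and the 1.5-fold limit dotted. FASN3 at 0.80 is the only called gene (filled), and Lsd-1 at -0.53 is the lowest.

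Levels between genes were compared per kilobase of exon, the union of the annotated exons. Desat1 was highest in control, at 2206 ± 38.4 normalized reads per kilobase (SD, n = 3), 7.66 times the next gene. It was followed in control by mag (288 ± 16), FASN1 (255 ± 59.7), ACC (214 ± 47.7) and bmm (191 ± 22.2), each with SD over 3 libraries. The ranges of neighbours in this stretch overlapped from mag down to bmm, so their order is not separated by the spread. Lsd-2 at 141 ± 14.5 and Lsd-1 at 95.1 ± 8.93 per kilobase (SD, n = 3) stood apart from their neighbours. The lowest levels per kilobase in control were those of FASN2 (48.4 ± 11.2), mdy (33.7 ± 11.8) and FASN3 (26.5 ± 5.3), whose ranges overlapped in turn (SD, n = 3).

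In Zeus KO the order per kilobase was Desat1, mag, ACC, bmm, FASN1, Lsd-2, FASN2, Lsd-1, FASN3 and mdy. FASN1 stood at 182 ± 32.5 per kilobase (SD, n = 3), between bmm and Lsd-2 and with ranges that overlapped both. FASN2 at 79.5 ± 17.9 and Lsd-1 at 66.1 ± 9.55 overlapped, where in control Lsd-1 had stood above FASN2 without overlap. FASN3 at 46.2 ± 6.91 per kilobase stood above mdy at 31.4 ± 2.09 without overlap (SD, n = 3).

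The genes whose levels followed that of FASN3 most closely over the 6 libraries were CG14839 (Pearson r = 0.994), CG17337 (0.994) and sev (0.993), the receptor of R7 photoreceptor fate. The genotype given for the strain of both groups holds a sev allele, and sev had means of 119.8 in control and 251.5 in Zeus KO. Whether strain background has a part in its likeness to FASN3 was not tested. The r values describe the 6 libraries only, are the highest among all 11265 genes tested, and rest on libraries that share their groups and scaling. For the sum of the 10 genes the closest were atk (0.996), heph (0.992) and numb (0.992), over the same 6 libraries.

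Around these 10 genes, 113 other genes of lipid metabolism from 8 lists were tested. Of these, 4 rose and 6 fell in Zeus KO, which is 8.85% called beside 4.01% of all genes tested. The median log2 fold change of the 113 genes was 0.00305 beside 0.00165 over all genes, and 57 lay above 0 and 56 below. The direct suppliers of synthesis, which make acetyl-CoA and NADPH, had 0 of 7 called and 3 of 7 with an unadjusted p under 0.05 (edgeR's quasi-likelihood test also called 0 of 7). Their most abundant genes were Men, the malic enzyme, at 7930 ± 653 normalized reads in control against 7903 ± 653 in Zeus KO (adjusted p = 0.987 from limma), and Idh, isocitrate dehydrogenase, at means of 6701 and 6375 (adjusted p = 0.700 from limma). In these lists 5 genes had an adjusted p under 0.05 at a fold under the limit, and they are named here after their values were seen. Pgd of the pentose phosphate pathway had means of 1014 ± 52.9 and 1427 ± 180.7 (SD, n = 3) and an adjusted p of 0.0260 from limma at 1.4-fold. The predicted elongase CG30008 had means of 532.5 ± 20.8 and 748.9 ± 45.7 (adjusted p = 0.0165 from limma), and the lipoprotein receptor LpR1 233.6 ± 13.7 and 336.3 ± 17.1 (adjusted p = 0.0260 from limma). The carnitine palmitoyltransferase whd and the acyl-CoA dehydrogenase Mcad, both of fatty acid oxidation, were on the lower side and follow below.

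Of 26 desaturases and elongation enzymes, 2 rose (7.69%) and none fell, with a median log2 fold change of 0.119. Elo68alpha, an elongase known from the male reproductive tract, had 30.91, 32.1 and 30.27 normalized reads in the control libraries and 104.8, 156.4 and 123.6 in the Zeus KO libraries. All Zeus KO libraries were over 3 times as high as any control, and the log2 fold change of 1.99 (SE 0.205, adjusted p = 0.00011 from limma) was called in all 15 alternatives. CG2781, a predicted elongase, went from 137.8 ± 12.6 to 228.1 ± 25.1 (SD, n = 3; log2 fold change 0.72, adjusted p = 0.0146 from limma). That call was lost without Zeus KO C, where the adjusted p was 0.084. The most abundant of the list, CG31523 and CG31141, had log2 fold changes of 0.016 and -0.33 and were not called (adjusted p = 0.943 and 0.0634 from limma).

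Among 15 genes of triacylglycerol synthesis and droplet formation, 1 fell (6.67%) and none rose. Seipin, which acts where droplets leave the endoplasmic reticulum, went from 94.5 ± 9.38 to 56.1 ± 9.44 normalized reads (SD, n = 3; log2 fold change -0.75, adjusted p = 0.0499 from limma). It lay at the limit and was called in only 3 of 15 alternatives, with adjusted p from 0.0122 to 0.218. The most abundant genes of the list, the acyltransferase mino and the phosphatidate phosphatase Lpin, had log2 fold changes of 0.070 and 0.17 and were not called (adjusted p = 0.783 and 0.536 from limma).

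Of 19 other lipases, 3 fell and 1 rose (21.1% called), with a median log2 fold change of -0.205. CG6295 went from 1285 ± 61 to 397.8 ± 95.2 normalized reads, and CG6283 from 1228 ± 77 to 530.5 ± 71.2 (SD, n = 3). Their log2 fold changes were -1.71 and -1.22 (adjusted p = 4.47e-05 and 7.57e-05 from limma), and neither lost its call in an alternative. CG17192 was much lower in level, with means of 39.0 and 10.04 and a log2 fold change of -1.86 (adjusted p = 0.0045 from limma). CG6296 rose, from 47.0 ± 7.8 to 88.2 ± 3.89 (SD, n = 3; log2 fold change 0.91, adjusted p = 0.0196 from limma), a call that was lost without control B, Zeus KO B or Zeus KO C (adjusted p up to 0.0793). These CG genes are annotated as lipase family members. The most abundant of the list were CG5162 and puml, with log2 fold changes of -0.27 and -0.098 and no call (adjusted p = 0.174 and 0.581 from limma).

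In fatty acid oxidation 0 of 15 genes were called by limma and 0 by edgeR, with 2 of 15 at an unadjusted p under 0.05 and a median log2 fold change of -0.126. Mcad (CG12262) had means of 1153 ± 96.4 and 842.3 ± 24, and whd 803.7 ± 58.2 and 570.7 ± 50 (SD, n = 3), each with an adjusted p of 0.0229 from limma at a fold under the limit. Of 12 activation and carrier genes 1 was called (8.33%), and Acbp3 (CG8628), an acyl-CoA binding protein, rose from 114.4 ± 21.2 to 242.4 ± 26.1 normalized reads (SD, n = 3; log2 fold change 1.09, adjusted p = 0.00245 from limma). The most abundant genes of these lists, colt, Acsl and Fatp3 (CG3394), had log2 fold changes of -0.18, 0.026 and -0.051 and were not called.

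Of 7 genes of lipoprotein transport, apolpp fell (14.3% called), and of 12 regulators, sug fell (8.33%). The apolpp transcript, which encodes the lipid carrier of the haemolymph, went from 2472 ± 282.9 to 1203 ± 37.5 normalized reads (SD, n = 3; log2 fold change -1.03, adjusted p = 0.000104 from limma). The regulator sug (sugarbabe), a sugar-induced transcription factor that acts on lipogenic genes, went from 119.2 ± 6.71 to 66.0 ± 11.3 (SD, n = 3; log2 fold change -0.85, adjusted p = 0.0188 from limma). The sug call was lost without control C, Zeus KO B or Zeus KO C (adjusted p up to 0.0991). SREBP, the transcription factor known to drive the synthases and ACC, had means of 1001 ± 77.3 and 1225 ± 82.5 (SD, n = 3) with no overlap and an adjusted p of 0.151 from limma. Mondo, the sugar sensor, had a log2 fold change of 0.13, and NLaz, the most abundant lipoprotein list gene beside apolpp, one of -0.11, both without a call.

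**Figure D5:**
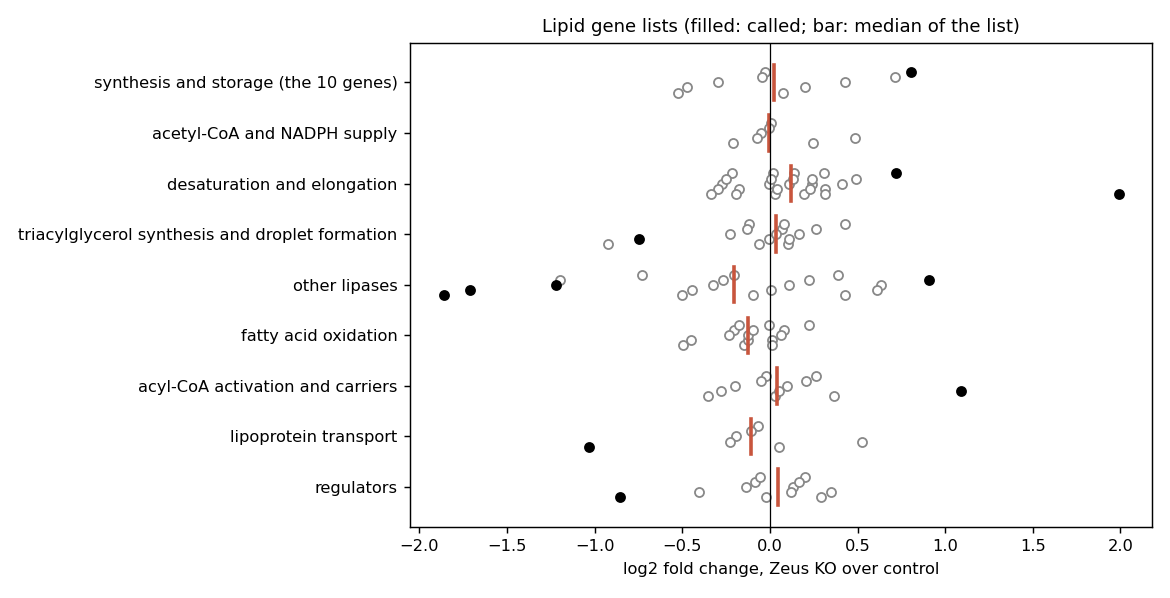
Log2 fold change between Zeus KO and control, positive where Zeus KO is higher (horizontal axis), for each tested gene of the 9 lipid lists, with called genes filled and the median of a list as a red bar. In the list of the 10 genes FASN3 is the filled point, and the called points of the other lists are 4 above 0 and 6 below.

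Markers of other tissues moved with the groups, and these tissues also express lipid genes. The summed level of 10 solved fat body markers was 5078 to 5628 normalized reads in control against 4226 to 4430 in Zeus KO, with 2 called lower (Lsp1beta and apolpp) and 1 higher (Lsp2). The fall of this sum was that of apolpp, itself a gene of the lipid lists. Without it the other 9 summed to 2932 to 2998 in control against 3031 to 3185 in Zeus KO, higher and again with no overlap. Most of that sum was Idgf4, with means of 2087 and 2225. Single markers went both ways: of the 10, 3 had log2 fold changes above 0 and 7 below, with a median of -0.32. The other 2 fat body list genes in the table had authors' means only, Cyp4g1, an enzyme of oenocytes, with 8623 in control against 15634 in Zeus KO, and Obp44a with 17255 and 14554. The 12 gut markers summed to 32528 to 33288 in control against 15291 to 18930 in Zeus KO, with 9 called lower and 1 higher, while mag, a lipase of the gut, was higher in every Zeus KO library. The 9 solved accessory gland markers summed to 33113 to 43066 and 21237 to 31930, with 3 called lower. Sfp24Ba of that list was higher with no overlap, with means of 24.48 and 49.91, and was not called. The unsolved genes of that list have only the authors' means, all lower in Zeus KO. They are Acp26Aa (14412 and 8197), Acp32CD (10537 and 7649), Acp36DE (53499 and 33757), Acp53Ea (12728 and 8893), Mst57Da (39034 and 22647) and Mst57Db (39592 and 21887). The 13 solved muscle markers summed to 22116 to 25980 and 26999 to 30124, with 3 called higher and 1 lower. None of the marker sums was length-corrected. With the length correction the calls of Mhc and Prm (muscle) and of Acp62F and Mst57Dc (accessory gland) were lost. Of 15 alternatives, Mhc and Prm were called in 7 each, Acp62F in 5 and Mst57Dc in 10. The muscle genes up (higher) and Act79B (lower) and the accessory gland gene Acp76A were called in all 15. By edgeR 2 muscle markers were called higher and 1 lower, and 2 accessory gland markers lower. No marker of these lists was at 0 in every library, and the part of these tissues in the levels of FASN3 and the other lipid genes was not tested.

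For markers of the testis itself the summed levels overlapped between the groups, while some single markers did not. Of all genes tested, 23.4% did not overlap. The 10 markers of cyst cells and terminal epithelium summed to 5507 to 6099 normalized reads in control and to between 5264 and 6259 in Zeus KO, with 1 that did not overlap, Amph, higher. The 11 early germline markers summed to 2937 to 3354 and 2732 to 3303. In that list vas, AGO3 and zpg were lower in Zeus KO with no overlap, 9 of 11 lay below 0 and the median log2 fold change was -0.194. The 11 solved markers of spermatocytes and spermatids summed to 18019 to 21343 and 19125 to 21211, with mia lower and with no overlap. The other 5 of that list have only the authors' means, all lower in Zeus KO, namely bol (18236 and 16649), betaTub85D (43257 and 41208), Mst87F (27681 and 23775), dj (19507 and 16226) and ocn (23894 and 19647). Of the 32 solved testis markers limma called 0 and edgeR 0. An unadjusted p under 0.05 from limma was found for 4 of them, beside 2123 of all 11265 genes.

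The sum of the 6 solved markers of the ejaculatory duct and bulb overlapped, at 13501 to 16469 and 12748 to 17566, but its members went both ways. The 2 genes named for the ejaculatory bulb were higher in Zeus KO with no overlap. They are EbpII, with means of 663.2 and 992 (1.49-fold, adjusted p = 0.0160 from limma), and EbpIII, with 1851 and 2459. The other 4 had log2 fold changes below 0. Limma called 0 of the 6 and edgeR 0, with 4 at an unadjusted p under 0.05 from limma. Est-6 has only the authors' means, 14759 in control and 11826 in Zeus KO.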

How the data were processed

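Reads were aligned by the authors to the dm6 genome (STAR, default settings) and assigned to genes with featureCounts, per the paper. Tool versions, annotation release and strand setting are not given in the sources used here. The deposited signal of a gene is a group mean over 3 libraries, in reads normalized by library size factors and not corrected for gene length. The deposited count of sequenced reads per library comes from FastQC. The authors' own fold changes, p-values and calls in the table were not used.

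Each group mean is a sum of whole reads with 1 fixed weight per library, which the lowest values of the table gave. Whole reads were searched for means up to 10000, to a relative tolerance of 8e-15. Each mean searched had exactly 1 solution. This solved 11279 of 11491 genes (98.2%), and 212 genes with a mean over 10000, which hold 30.5% of the normalized reads, have only the authors' means. The solved libraries hold 7727356 to 11506972 reads, and reads without molecular identifiers are not independent molecules. Replicates are called biological triplicates in the paper. Whether the flies came from separate cultures is not stated, so p-values measure the spread between these libraries.

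The 11265 solved genes with a mean of at least 1 were tested with limma (version 3.58.1) with a trend on log2(normalized reads + 1), 2-sided, on all 6 libraries without covariates, and p-values were adjusted by Benjamini-Hochberg over all of them. Fold changes on this scale understate the change of low genes. edgeR (version 4.0.16) was run on the solved reads as an alternative added after the data were seen, and called 449 genes. A correction for exon length was also added then. It subtracts from each library a loess curve (span 0.5) of its deviations from the gene means on log2 exon length, fitted on genes with a mean of at least 100, and tests the 11182 genes with a known length. Other alternatives were pseudocounts of 0.5 and 5, a minimum mean of 10 or none, quantile normalization, scaling to the total of the solved reads, limma-voom, no fold limit, and leaving out each library. The fits and the solving were tested on simulated data.

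The 10 genes and the lists were chosen with earlier results of these data known. Named in the text are the 10 genes, of each further lipid list the called genes and the 2 with the highest mean, and the 3 genes closest to FASN3 and to the sum of the 10. Of the marker lists, summed levels are given instead of most single genes. Symbols, positions and exon lengths come from Ensembl release 115 (BDGP6.54, the coordinates of dm6) and RefSeq synonyms. FASN3 has the ID FBgn0040001 in the table and FBgn0287184 in the annotation. No gene or protein sequence was used here.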

Additional observations from a re-analysis of the deposited data

How the results depend on the processing

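No paired analysis was possible because the solved libraries carry no replicate number, so the replicate numbers of the labels could not be used as a block. The count of called genes among the 10 was 1, moved to 2 (FASN2 and FASN3) when libraries were scaled to the total of the solved reads and to 2 (FASN1 and FASN3) with the exon length correction, and ran from 0 to 2 when a library was left out: 0 without control C, Zeus KO B or Zeus KO C, and 2 without control A, control B or Zeus KO A. Over all genes it was 452, ran from 298 (without control C) to 556 when a library was left out, and was 449 with edgeR, of which 439 were among the 452, and 606 with the length correction, of which 410 were. The further lipid lists had 10 calls, from 6 (without Zeus KO C) to 11 when a library was left out, and 13 with the length correction. The sign turned for 3 genes near 0: ACC at -0.066 with the length correction, -0.095 without control B, -0.030 without Zeus KO B and -0.038 without Zeus KO C (range over left-out libraries -0.095 to 0.28); Lsd-2 at 0.0077 with the total of the solved reads, 0.048 without control A and 0.044 without Zeus KO A (range -0.10 to 0.048); and mdy at 0.21 without control C (range -0.30 to 0.21). Scaling to the total of the solved reads moved the median log2 fold change of all genes to 0.0373 and the split of calls to 278 higher and 195 lower, from 239 and 213. Desat1, Lsd-1, mag and bmm kept their sign and stayed uncalled in all 15 alternatives, although the adjusted p of Desat1, Lsd-1 and mag was under 0.05 with the length correction. The cause of these shifts was not tested. Precision is limited by 3 libraries a group and, for mdy and Lsd-1, by 57 to 172 reads a library.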
